A study of Mus musculus with 96 samples.

Results

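The 9 genes described here are transcription factors that pattern the skull and face: Twist1, Twist2, Prrx1, Prrx2, Msx1, Msx2, Alx4, Tcf12 and Zic1. They were chosen by name, with earlier results of these data known, from the 37945 genes of the deposited table, and the transcripts of each gene were summed. All 9 passed the filter on low values (at least 0.5 TPM in 2 or more libraries), which left 15760 genes for testing. TPM is a relative abundance per transcript length that sums to the same total in every library. Levels are given as scaled TPM, that is TPM divided by a scaling factor for each library.

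The study sequenced total RNA of mineralizing osteoblast cultures from 42 strains of the Collaborative Cross, a panel of recombinant inbred mouse lines that mix the genomes of several founder strains. Cells were released by enzyme digestion from the skull caps of pups aged 3 to 5 days, after the brain and the interparietal bone had been taken off, and were cultured for 10 days with ascorbic acid plus beta-glycerol phosphate. Every culture had this treatment, no strain carries a transgene or a targeted deletion in the labels, and the groups are the strains. The 96 samples gave 95 independent libraries, because 1 CC030 sample was sequenced 2 times and its runs were averaged. There were 2 libraries for each of 31 strains, 4 for each of 6, 3 for each of 2, and a single one for CC011, CC024 and CC035. The labels give no sex, litter or batch and leave unsaid whether the libraries of a strain are from different animals or cultures. The p-values below therefore measure only how far these samples spread, and that spread may be technical.

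The label of the cells was checked against marker genes. All 15 osteoblast and mineralization markers were measured, with the collagen gene Col1a2 at a mean of 7206 scaled TPM and the matrix protein gene Sparc at 3859. Markers of other cells were present to different extents: the 14 macrophage markers summed to between 15.0 and 2141 scaled TPM per library, led by the complement gene C1qa (mean 65.2) and the adaptor gene Tyrobp (55.9). Smooth muscle and pericyte markers summed to between 174 and 2114, and suture and tendon markers to between 615 and 2087. Chondrocyte markers summed to between 16.8 and 337. Sums of different lists do not rank the cell types. Of 7 skeletal muscle markers, only the troponin gene Tnnt3 passed the filter on low values (mean 0.639, highest library 1.68). The strains CC030, CC051 and CC071 had the lowest osteoblast scores (-2.23, -1.29 and -2.44, as the mean z-score of the list over strain means). CC030 and CC071 lay far below the rest, while CC051 was near the next strain, CC055 (-1.06). Results are also given without CC030, CC051 and CC071 where that changed a call. Of the strain differences below, Msx1 in CC041 and Prrx2 in CC015 then lost their call. Twist1 in CC009, Twist2 in CC002 and CC037 and Zic1 in CC059 gained one. Depth, estimated from the steps that single reads leave in the low values, was 20.9 to 83.6 Mreads (1000000 reads) per library. In these bulk cultures, fewer cells of a type and less RNA per cell cannot be told apart.

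Twist1 and Twist2 are basic helix-loop-helix factors that bind DNA in pairs with E proteins, of which Tcf12 is one, and TWIST1 and TCF12 are known as human genes of craniosynostosis, the early closure of skull sutures. Prrx1 and Prrx2 are paired-type homeobox genes of limb and head mesenchyme, and Alx4 is a related homeobox gene that patterns the skull vault. Msx1 and Msx2 are homeobox targets of BMP signalling that act in teeth and sutures, and Zic1 is a zinc finger factor of neural and mesodermal patterning that lies head to head with its paralogue Zic4.

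The sequences below are the 250 bases before the RefSeq start of Twist1 and Twist2, the paralogues whose ratio had the widest range over strains of the 3 pairs here, and of Zic1 and Zic4, neighbours whose levels went together. They come from the RefSeq promoter table (GRCm38.p6), in which 8 of the 9 genes matched by symbol. Capitals mark E-boxes (CANNTG, the core that helix-loop-helix factors bind, the same on both strands) and GC boxes (GGGCGG on either strand), and overlapping matches run together.
Twist1, chr12:33957421-33957670, plus strand: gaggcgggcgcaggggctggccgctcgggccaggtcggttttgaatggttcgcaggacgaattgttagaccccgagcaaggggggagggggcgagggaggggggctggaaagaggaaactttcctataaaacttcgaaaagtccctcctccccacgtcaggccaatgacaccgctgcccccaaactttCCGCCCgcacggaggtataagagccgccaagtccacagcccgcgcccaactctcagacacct
Twist2, chr1:91801211-91801460, plus strand: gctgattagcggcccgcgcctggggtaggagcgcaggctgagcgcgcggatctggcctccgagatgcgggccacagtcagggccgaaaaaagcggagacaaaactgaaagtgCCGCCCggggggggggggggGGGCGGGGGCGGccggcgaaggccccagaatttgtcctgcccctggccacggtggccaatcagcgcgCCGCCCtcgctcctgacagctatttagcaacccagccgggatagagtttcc
Zic1, chr9:91365769-91366018, minus strand: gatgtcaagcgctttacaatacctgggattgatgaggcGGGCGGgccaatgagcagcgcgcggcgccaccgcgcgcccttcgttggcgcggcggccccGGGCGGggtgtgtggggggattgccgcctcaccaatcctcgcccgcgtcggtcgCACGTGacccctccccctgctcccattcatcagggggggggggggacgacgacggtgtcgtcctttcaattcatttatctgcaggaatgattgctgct
Zic4, chr9:91368722-91368971, plus strand: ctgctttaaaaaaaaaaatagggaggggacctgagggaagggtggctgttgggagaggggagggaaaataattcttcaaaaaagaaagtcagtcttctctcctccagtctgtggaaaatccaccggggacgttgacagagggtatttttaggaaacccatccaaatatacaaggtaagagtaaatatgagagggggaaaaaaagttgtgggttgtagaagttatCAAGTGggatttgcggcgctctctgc
Neither Twist window held an E-box, while Zic1 and Zic4 held 1 each. Of all 32851 windows of this length, 66.2% held an E-box and 32.7% a GC box. Twist2 held 4 GC boxes, Zic1 held 2, Twist1 held 1 and Zic4 none. These letters are a description of the windows and were not linked to any strain.

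In level, the 9 genes covered a wide range in the same cultures. Prrx1 had the highest median over libraries at 64.5 scaled TPM, followed by Prrx2 at 44.7, Tcf12 at 30.5, Twist1 at 23.6, Zic1 at 13.9, Alx4 at 12.6, Msx1 at 8.02, Msx2 at 3.22 and Twist2 at 0.631. Twist1 exceeded Zic1, Msx1 exceeded Msx2 and Msx2 exceeded Twist2 in 95 of 95 libraries. Zic1 and Alx4 did not keep an order, with Zic1 above Alx4 in 55 of 95 libraries. Prrx1 exceeded Prrx2 in 84 libraries, Prrx2 exceeded Tcf12 in 91, Tcf12 exceeded Twist1 in 88, and Alx4 exceeded Msx1 in 83. The reads behind these levels were estimated at 4559 to 22680 per library for Prrx1, 539 to 3557 for Twist1, 117 to 548 for Msx2 and 0.994 to 128.2 for Twist2, so the precision is lowest for Twist2.

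For all 9 genes the strain means varied more than the spread between libraries of a strain would give by itself (limma moderated F test over 39 strains with 2 or more libraries, adjusted p below 0.05). This was also true of 81.6% of all genes tested, so a call by itself does not set the 9 apart. The share of variance between strains, given as the intraclass correlation, separated them more. It was 0.81 for Prrx1, 0.67 for Msx2 and for Prrx2, 0.61 for Alx4 and 0.59 for Tcf12, against a median of 0.47 over all genes (middle 50% from 0.28 to 0.64). It was 0.47 for Twist2, 0.41 for Twist1, 0.34 for Zic1 and 0.25 for Msx1. Prrx1 was in percentile 93.0 of all genes by this measure and Msx1 in percentile 21.1. The spread of the strain means on the log2 scale ran from 0.50 for Tcf12, in percentile 6.6 of all genes, to 1.76 for Twist2, with a median of 1.02 over all genes.

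The sample titles carry a number that the labels do not explain. For most of the 9 genes the intraclass correlation was higher in strains whose libraries had near numbers. The strains with close and with distant numbers are different strains, and the spread within strains is not given for each set. The values therefore do not show by themselves that libraries with near numbers were more alike. In the 19 strains with close numbers (all within 5), the intraclass correlation was 0.91 for Prrx1, 0.92 for Prrx2, 0.66 for Twist1, 0.63 for Zic1 and 0.47 for Msx1. In the 20 strains with distant numbers, each taken with its lowest- and highest-numbered library (20 or more apart), it was 0.69, 0.53, 0.32, 0.28 and 0.0038. For Msx2 it was 0.78 in close and 0.46 in distant strains, and for Twist2 0.76 and 0.30. It did not fall for Alx4 (0.55 and 0.59) or Tcf12 (0.53 and 0.62). The medians over all genes were 0.70 and 0.35. With the distant strains alone, 5 of the 9 genes passed the limma test (Prrx1, Prrx2, Msx2, Alx4 and Tcf12), beside 41.3% of all genes. The adjusted limma p was then 0.097 for Twist1, 0.109 for Twist2, 0.132 for Zic1 and 0.503 for Msx1. What the numbers stand for was not tested.

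**Figure D1:**
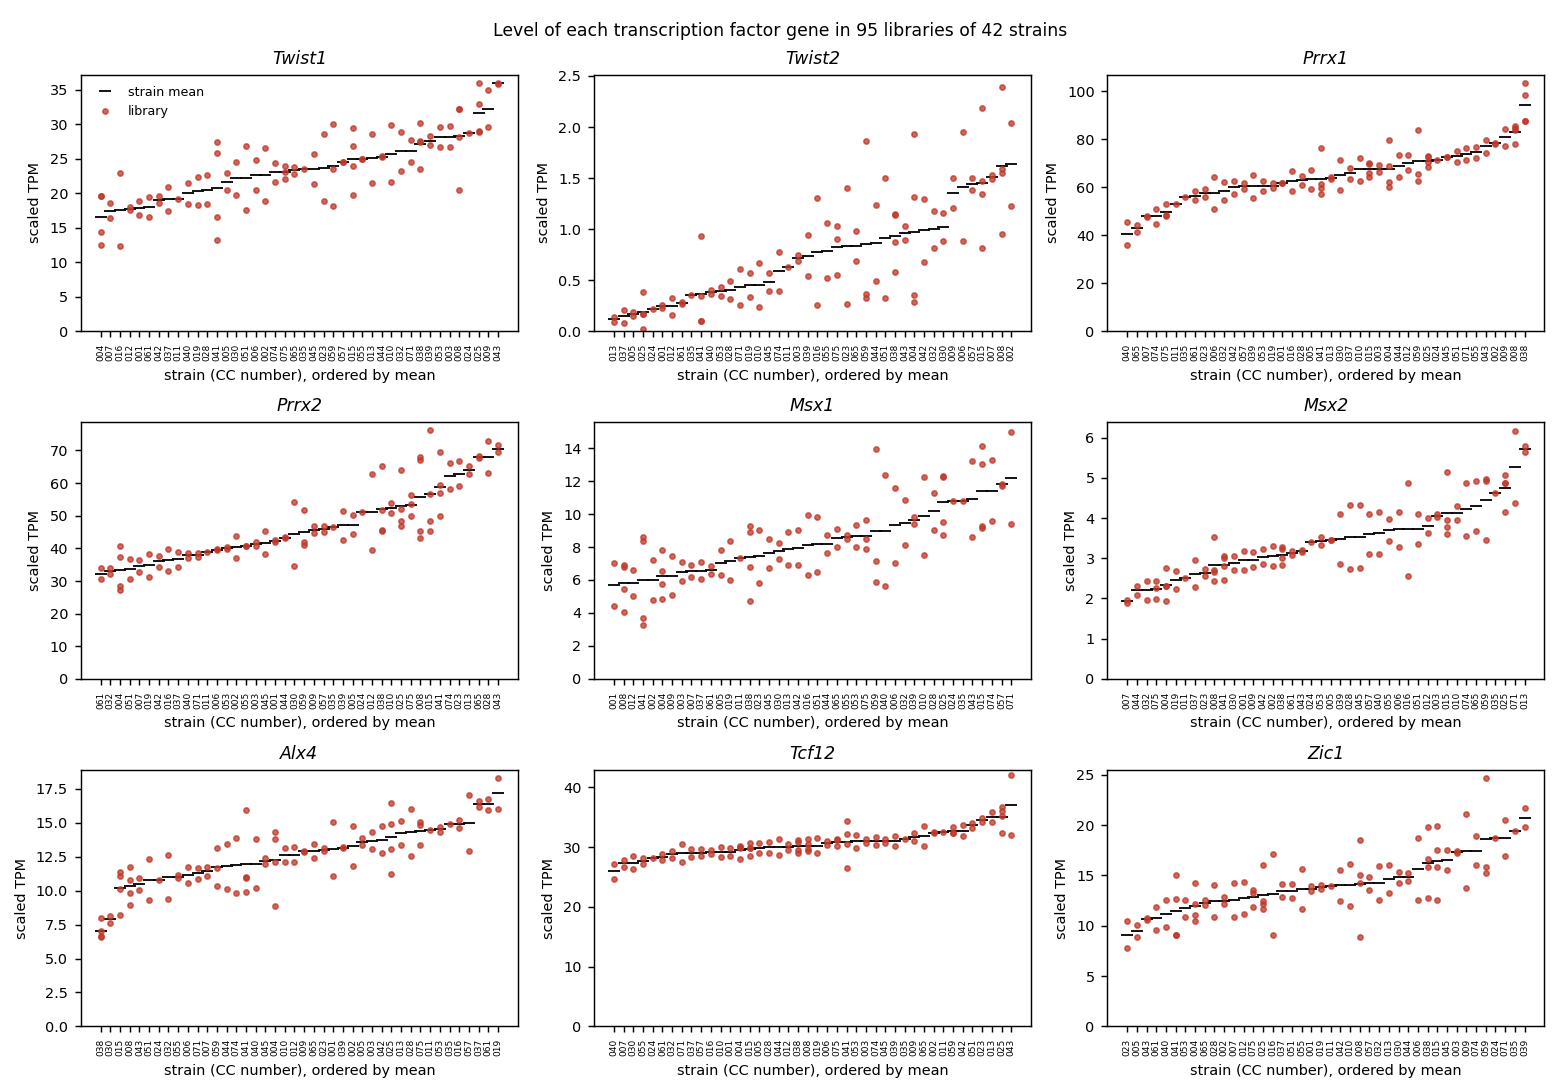
Scaled TPM (vertical axes, linear from 0) of each of the 9 genes in 95 libraries (red points) by strain (horizontal axes), with the strain mean as a black bar and strains ordered by mean in each panel. Libraries of a strain lie close together for Prrx1 and Tcf12 and far apart for Msx1 and Twist2, and the 4 Prrx1 libraries of CC038 lie between 87.6 and 104 scaled TPM.

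Each of the 39 strains was then compared with the mean of the other 38. Of 351 comparisons over the 9 genes, 56 passed (limma, adjusted p below 0.05 over all genes and strains), 29 of them higher and 27 lower. Over all genes, 7.72% of comparisons passed as higher and 7.06% as lower. Prrx2 had 12 such strains (8 higher, 4 lower), Prrx1 had 10 (5 and 5), Msx2 had 9 (4 and 5), Alx4 had 7 (3 and 4) and Tcf12 had 7 (4 and 3). Twist2 had 4 (2 and 2), Twist1 had 3 (2 and 1), Zic1 had 3 (1 and 2) and Msx1 had 1, which was lower. Most calls rested on few libraries, as 38 of the 56 did not pass when 1 of the strain's own libraries was left out, and 16 passed under every scaling, pseudocount, filter and left-out library tried. Those 16 were Prrx1 in CC007, CC008, CC038, CC040, CC065 and CC075, Msx2 in CC004, CC007, CC013, CC025 and CC075, Prrx2 in CC004, CC043 and CC065, and Alx4 in CC030 and CC038. The strains named for each gene below are its highest and lowest by mean, a choice that favours libraries without overlap. Where no overlap is stated, it describes the values and is no further test, and its share over all genes was not computed.

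By strain, the count of the 9 genes is read against the share of all genes that passed in the same strain, which differed widely. The highest count was 4 of the 9. It was reached in CC043, where Twist1, Prrx1, Prrx2 and Tcf12 were higher (29.4% of all genes passed), in CC013, where Prrx2, Msx2 and Tcf12 were higher and Twist2 lower (13.7%), and in CC025, where Twist1, Msx2 and Tcf12 were higher and Twist2 lower (22.6%). A count of 3 was found in CC004 (18.7%), where Twist1, Prrx2 and Msx2 were lower, in CC007 (15%), where Prrx1, Msx2 and Tcf12 were lower, and in CC008 (24.4%), CC015 (21.3%) and CC023 (14%), where the directions were mixed. The 9 strains with 2 of the 9 genes were CC030 (30%), CC032 (14.1%), CC038 (30.2%), CC040 (10.6%), CC041 (21.5%), CC061 (12.4%), CC065 (7.67%), CC074 (13.3%) and CC075 (18.1%). A single gene of the 9 passed in CC002 (13.8%), CC005 (13.5%), CC009 (11.9%), CC019 (9.23%), CC028 (11.4%), CC037 (14%), CC039 (11.6%), CC044 (12.4%), CC051 (13.3%), CC059 (11.8%) and CC071 (21.2%), and none in the other 11 strains. No test of these counts was made.

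**Figure D2:**
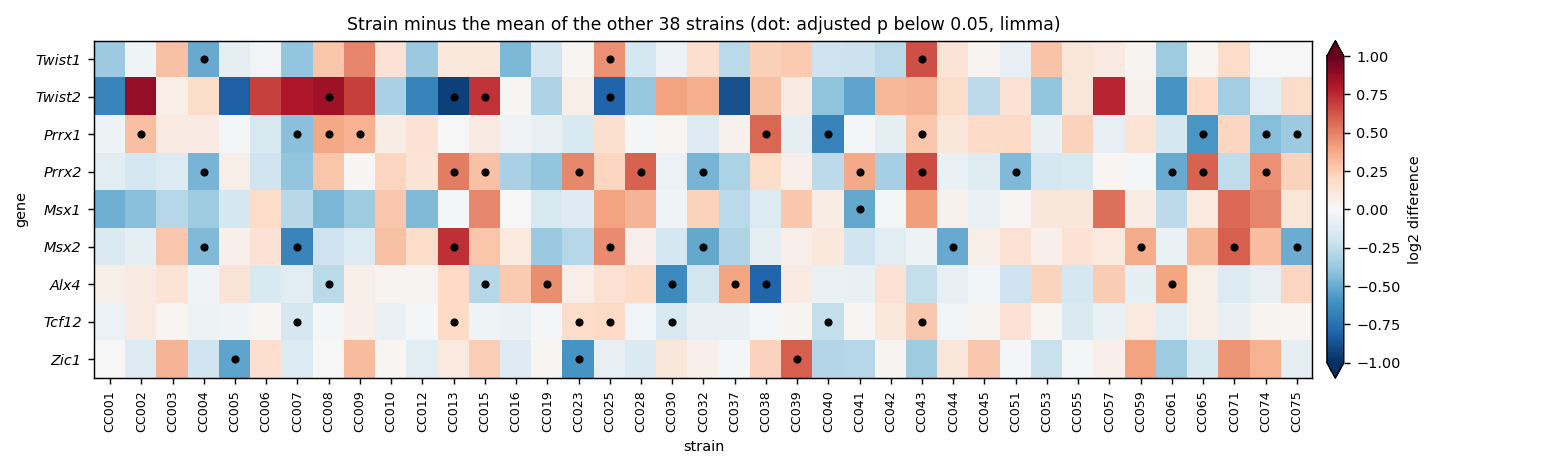
Log2 difference of each strain from the mean of the other 38 (colour, red higher and blue lower, colours saturate at 1 and -1) for the 9 genes (rows) in 39 strains (columns), with a dot where the adjusted limma p was below 0.05. The 56 dots fall in both directions for every gene but Msx1, which has 1 dot, in CC041.

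Twist1, which keeps suture mesenchyme undifferentiated, ranged from 12.3 to 36.04 scaled TPM over libraries (median 23.6). The CC043 libraries were at 36.04 and 35.9, and the 4 CC025 libraries at 28.9 to 35.9. In CC009 they were at 29.6 and 35.0. At the other end, the CC004 libraries were at 19.6, 19.6, 14.4 and 12.6, the first pair and the second pair having neighbouring title numbers, and CC016 held both 12.3 and 23.0. No library of CC004, the lowest strain by mean, reached the lowest of CC043 or CC025, both among the 3 highest. The difference from the other strains was 0.65 on the log2 scale for CC043 (SE 0.18, limma adjusted p = 0.00714), 0.46 for CC025 (SE 0.13, adjusted p = 0.00791) and -0.50 for CC004 (SE 0.13, adjusted p = 0.00323). Leaving out 1 of its own libraries gave a limma adjusted p of up to 0.0760 for CC043, 0.0561 for CC025 and 0.0600 for CC004. On unscaled TPM neither CC025 (limma adjusted p = 0.143) nor CC004 (0.0578) passed, and CC025 did not when scaled by protein-coding TPM (0.0609). CC009 at 0.49 (limma adjusted p = 0.0533), CC016 at -0.45 (adjusted p = 0.0763) and CC007 at -0.40 (adjusted p = 0.128) did not pass. CC009 passed narrowly without CC030, CC051 and CC071 (limma adjusted p = 0.0495) and without any 1 of 12 libraries of other strains.

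Twist2, known from dermis and bone precursors, was the least abundant of the 9, and 56 of 95 libraries reached 0.5 TPM. Values ran from 0.0258 to 2.40 scaled TPM (median 0.631). CC002 had libraries at 2.04 and 1.23, CC007 at 1.53 and 1.49, and the 4 CC008 libraries lay between 0.953 and 2.40. The lowest strains were CC013 (0.146 and 0.0895), CC037 (0.210 and 0.0827) and CC005 (0.151 and 0.188). Every library of these 3 lay below every library of the 3 highest, all picked by their means. CC008 was higher than the other strains by 0.85 on the log2 scale (SE 0.23, limma adjusted p = 0.00600), and CC013 differed by -0.94 (SE 0.32, adjusted p = 0.0356). CC002, with the highest mean, was at 0.88 with a limma adjusted p of 0.0522 over its 2 libraries. It passed on unscaled TPM (limma adjusted p = 0.0470), with 1 added before the logarithm (0.0477) and without CC030, CC051 and CC071 (0.0443). Without 1 of its own libraries the limma adjusted p reached 0.0649 for CC008 and 0.209 for CC013, and CC013 did not pass with 1 added before the logarithm (0.0596) or with no filter on low values (0.0580). With 0.5 added before the logarithm, these differences understate the change of a gene at this level.

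Tcf12, the E protein that pairs with Twist factors, varied least. Its libraries ran from 24.8 to 42.1 scaled TPM (median 30.5), and the spread between libraries of a strain was 0.074 on the log2 scale. CC043 was highest with 42.1 and 32.1, libraries that lie far apart for this gene, and the 4 CC025 libraries were at 32.4 to 36.8. CC040 was lowest with 24.8 and 27.1. The difference was 0.27 for CC043 (SE 0.06, limma adjusted p = 3.46e-04), 0.20 for CC025 (SE 0.04, adjusted p = 1.87e-04) and -0.24 for CC040 (SE 0.06, adjusted p = 0.00174). CC025 kept its call without any of its own libraries but not under either other scaling. CC043 without its higher library was at 0.08 (limma adjusted p = 0.548), and CC040 did not pass without its lower one (adjusted p = 0.145).

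Of 8 genes for other dimer partners of Twist, 6 were measured and 5 passed the limma test of strains, beside 81.6% of all genes. Those with the largest spread were the Id genes, whose proteins bind E proteins and keep them from DNA. Id4 ran from 0.942 to 17.6 scaled TPM over libraries and Id1 from 1.94 to 57.7, both with their highest strain mean in CC045. Id3 ran from 32.9 to 181 and Id2 had its highest strain mean in CC007. The E protein gene Tcf3 did not pass (limma adjusted p = 0.195), and the partners Hand1 and Hand2 did not pass the filter on low values.

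Prrx1 had the clearest strain differences of the 9 (limma adjusted p = 1.07e-13). Its libraries ran from 36.04 to 104 scaled TPM with a median of 64.5. The 4 CC038 libraries, at 104, 87.6, 98.5 and 87.8, exceeded every library of every other strain. CC008 followed with 4 libraries between 78.1 and 85.4, and CC009 with 77.4 and 84.4. CC040 (36.04 and 45.4), CC065 (41.5 and 44.3) and CC074 (50.9 and 44.9) were lowest. The difference was 0.57 for CC038 (SE 0.06, limma adjusted p = 9.90e-11), -0.67 for CC040 (SE 0.09, adjusted p = 1.62e-08) and -0.58 for CC065 (SE 0.09, adjusted p = 4.88e-07). Without any 1 of their own libraries these 3 kept their calls, at limma adjusted p-values of at most 5.02e-08, 0.00131 and 9.15e-04.

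Prrx2 ran from 27.3 to 76.3 scaled TPM with a median of 44.7 (limma adjusted p for strains 7.94e-09). CC043 was highest with 71.7 and 69.5, followed by CC065 with 68.2 and 67.6 and CC028 with 63.1 and 72.8. The lowest were CC061 (30.5 and 33.9), CC032 (34.0 and 32.1) and CC004 (40.8, 37.4, 27.3 and 28.4), whose values fell into the same pairs of title numbers as for Twist1. The high and low strains named here, picked by their means of this gene, did not overlap. Differences were 0.65 for CC043 (SE 0.14, limma adjusted p = 7.16e-04) and -0.50 for CC061 (SE 0.14, adjusted p = 0.0109). CC043 kept its call without either library (limma adjusted p at most 0.0279), while CC061 did not without the lower one (adjusted p = 0.166).

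No shared movement of the Prrx paralogues across strains was detected. Their strain means had a Pearson r of 0.04 (rho 0.12, adjusted permutation p = 0.867, n = 42 strains), and in the strains with close title numbers the value was -0.18. CC065 and CC074 had low Prrx1 and high Prrx2, each past the test in both genes (for CC074, Prrx2 did not pass without either of its libraries, with a limma adjusted p of up to 0.247, nor Prrx1 on unscaled TPM, with 0.0823). The ratio of Prrx1 to Prrx2 within a library, which needs no scaling factor, was 0.612 and 0.658 in CC065 and 0.877 and 0.682 in CC074, against 2.43 and 1.91 in CC051. The ratio differed between strains (adjusted permutation p = 1.5e-05, from a p of 1e-05, the smallest that 100000 permutations of the strain labels can give, over 3 ratios tested). CC065 libraries held more Prrx2 than Prrx1, which makes them part of the 11 libraries of 95 in which Prrx1 was not the higher.

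For the Twist pair, Twist1 exceeded Twist2 in every library, and r across strains was 0.17 (rho 0.16, adjusted permutation p = 0.484). The ratio of Twist1 to Twist2, with 0.5 TPM added to each, was 38.7 to 54.1 in the 4 CC025 libraries and 33.0 and 45.2 in CC013, against 9.27 and 8.55 in CC007. Twist2 was at 0.0258 to 0.383 scaled TPM in CC025 and at 0.146 and 0.0895 in CC013, below the 0.5 added. The high ratios therefore depend largely on the added value and understate the fold. The ratio differed between strains (adjusted permutation p = 1.5e-05). In CC007 Twist1 was at 18.6 and 16.5 scaled TPM and Twist2 at 1.53 and 1.49, and neither gene passed there by itself.

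**Figure D3:**
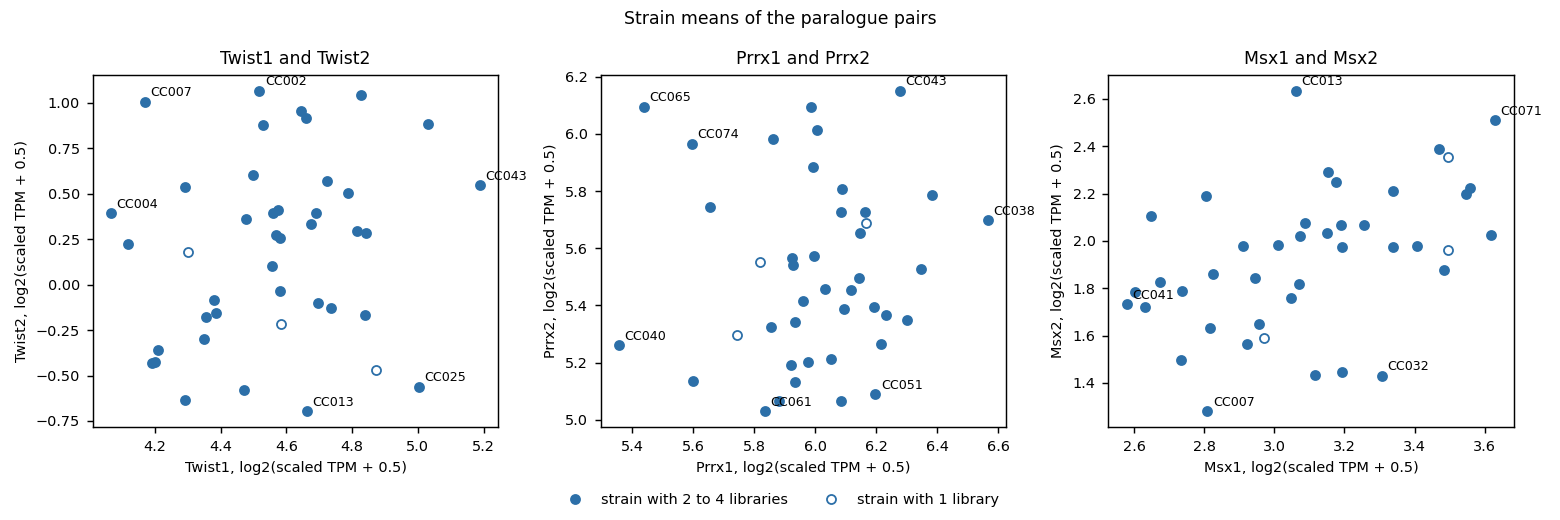
Strain means of Twist1 and Twist2, Prrx1 and Prrx2, and Msx1 and Msx2 on log2(scaled TPM + 0.5) axes, with filled points for strains of 2 to 4 libraries and open points for the 3 strains with 1. Prrx1 and Prrx2 form no line (r 0.04), with CC065 at the upper left, and Msx1 and Msx2 rise together loosely (r 0.46).

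Msx1 and Msx2 did move together in part. Msx1 ran from 3.28 to 15.0 scaled TPM (median 8.02) and Msx2 from 1.90 to 6.17 (median 3.22). Across strains r was 0.46 (rho 0.48, adjusted permutation p = 0.0414), 0.42 without the 2 strains farthest from the median, 0.40 in the strains with close title numbers and 0.63 in those with distant numbers. Both had a high mean in CC071, with Msx1 at 9.40 and 15.0 and Msx2 at 4.37 and 6.17. Their ratio still differed between strains (adjusted permutation p = 7.70e-04), from 3.497 and 3.85 in CC032 to 1.53 and 1.18 in CC013, but not in the strains with distant title numbers (adjusted permutation p = 0.646).

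Msx2, the better separated of the pair, had CC013 highest at 5.63 and 5.80 scaled TPM, CC071 next, and the 4 CC025 libraries at 4.16 to 5.07. CC007 (1.96 and 1.90), CC032 (1.97 and 2.44) and CC044 (2.09 and 2.32) were lowest. These 3 strains and the 3 highest, picked by their means, did not overlap. CC013 was higher by 0.73 (SE 0.14, limma adjusted p = 1.09e-04) and CC007 differed by -0.66 (SE 0.14, adjusted p = 4.25e-04), and both kept their calls without either library (limma adjusted p at most 0.00968 and 0.0201). For Msx1 the limma test over strains gave an adjusted p of 0.0240, which became 0.0538 without strain CC015. Its libraries within a strain often lay far apart: CC041 held 3.28 and 3.68 in the libraries numbered 19 and 20, and 8.33 and 8.61 in those numbered 32 and 39. CC041 was the 1 strain that passed (-0.51, SE 0.18, limma adjusted p = 0.0440), and it did not pass without either of the first pair (adjusted p of up to 0.372), on unscaled TPM (0.0502), with no filter on low values (0.0710) or without CC030, CC051 and CC071 (0.0510).

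Alx4 ran from 6.61 to 18.3 scaled TPM with a median of 12.6 (limma adjusted p for strains 3.29e-07). The 4 CC038 libraries, at 7.98, 6.63, 6.61 and 6.99, and the 2 of CC030, at 7.59 and 8.15, were the 6 lowest of all 95 libraries. CC019 was highest with 16.0 and 18.3, followed by CC037 with 16.6 and 16.1 and CC061 with 16.7 and 16.0. None of these overlapped the low strains, both sets being picked by mean. CC038 differed by -0.79 (SE 0.09, limma adjusted p = 2.45e-09), CC030 by -0.64 (SE 0.13, adjusted p = 2.92e-04) and CC019 by 0.46 (SE 0.13, adjusted p = 0.0105). The first and second kept their calls without any 1 of their own libraries (limma adjusted p at most 3.16e-07 and 0.0230), and CC019 did not (0.201). CC038 thus held the highest Prrx1 and the lowest Alx4 of the 39 strains, while r between the 2 genes over all strains was -0.37 (rho -0.43, adjusted permutation p = 0.0711).

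Zic1 ran from 7.75 to 24.7 scaled TPM with a median of 13.9 (limma adjusted p for strains 0.00358). CC039 was highest with 21.7 and 19.8, and the single libraries of CC035 (19.5) and CC024 (18.7) came next. CC059 held 24.7, 15.2 and 15.9. CC023 (10.51 and 7.75), CC005 (10.0 and 8.89) and CC043 (10.8 and 10.6) were lowest. None of their libraries reached those of CC039, the highest strain by mean. CC039 was higher by 0.60 (SE 0.18, limma adjusted p = 0.0160), CC023 differed by -0.59 (SE 0.18, adjusted p = 0.0175) and CC005 by -0.53 (SE 0.18, adjusted p = 0.0372). None of the 3 kept its call when 1 of its own libraries was left out (limma adjusted p of up to 0.165, 0.345 and 0.271). On unscaled TPM CC039 (limma adjusted p = 0.204) and CC023 (0.261) did not pass, and scaled by protein-coding TPM CC039 (0.0726) and CC005 (0.0564) did not, nor did CC005 with no filter on low values (0.0592).

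Across the 42 strain means, 6 of the 36 pairs among the 9 genes had an adjusted permutation p below 0.05, 5 positive and 1 negative. Twist1 was in 3 of the positive pairs, with Msx1 (r 0.45, rho 0.45), Prrx2 (0.44, 0.42) and Prrx1 (0.42, 0.44), each with an adjusted permutation p of 0.0414. Prrx2 also went with Tcf12 (0.43, rho 0.36, adjusted permutation p = 0.0414), and Twist2 went against Alx4 (-0.40, rho -0.43, adjusted permutation p = 0.0453). Without CC004 and CC043, the strains farthest from the Twist1 median, r was 0.38 for Msx1, 0.31 for Prrx2 and 0.43 for Prrx1. In strains with close title numbers these 3 values were 0.65, 0.54 and 0.41, and in those with distant numbers 0.27, 0.34 and 0.43. For Prrx2 with Tcf12 they were 0.68 and 0.23, and for Twist2 with Alx4 -0.43 and -0.47.

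These pair calls were weak. Leaving out 1 strain at a time gave between 0 and 7 called pairs: 0 without CC004, CC007, CC025 or CC061 (with 12 to 13 pairs at an unadjusted permutation p below 0.05, against 13 with all strains), 1 without CC008 or CC013, 2 without CC043 and 3 without CC023. On deposited TPM without scaling factors, 16 pairs were called, all 16 positive, and r of Twist2 with Alx4 was -0.20 (adjusted permutation p = 0.264). Scaled by protein-coding TPM, 9 were called, all 9 positive.

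The 9 genes were also related to the scores of 6 marker lists, and 8 of 54 relations had an adjusted permutation p below 0.05. Alx4 had 3 of them. It rose with the osteoblast and mineralization list (r 0.60, rho 0.58, adjusted permutation p = 0.00594), and r was 0.54 without CC030 and CC071, 0.69 in the strains with close title numbers and 0.60 in those with distant numbers. It fell with the macrophage list (r -0.48, rho -0.49, adjusted permutation p = 0.0224; -0.48 and -0.46 in close and distant strains) and with proliferation markers (r -0.43, rho -0.36, adjusted permutation p = 0.0340; -0.55 and -0.25). Without CC030, CC051 and CC071 the macrophage relation was -0.41 (adjusted permutation p = 0.0619). The 14 macrophage markers summed to 25.8 scaled TPM in CC041, the lowest strain, and to 1891 in CC030, the highest, and no marker was at 0 in every library. The part that other cells have in these values, and in those of Tcf12 below, was not tested.

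Twist1 and Msx1 went the other way from Alx4 with the osteoblast list. For Twist1 r was -0.43 (rho -0.58, adjusted permutation p = 0.0340) and -0.54 without CC030 and CC071, with -0.56 and -0.31 in close and distant strains. For Msx1 r was -0.44 (rho -0.46, adjusted permutation p = 0.0236), with -0.66 and -0.31. Prrx1 rose with the suture and tendon list (r 0.47, rho 0.36, adjusted permutation p = 0.0224), which was 0.37 without CC008 and CC009, and 0.19 and 0.66 in close and distant strains. Prrx2 rose with proliferation markers (r 0.46, rho 0.41, adjusted permutation p = 0.0224; 0.35 and 0.56). Tcf12 fell with the macrophage list (r -0.52, rho -0.52, adjusted permutation p = 0.0122; -0.55 and -0.47), but r was -0.28 when scaled by protein-coding TPM (adjusted permutation p = 0.208) and -0.01 on unscaled TPM (adjusted permutation p = 0.963). Without scaling factors 15 relations were called, 12 positive and 3 negative, against 3 positive and 5 negative with them, and 5 positive and 4 negative when scaled by protein-coding TPM. Relations of Twist2 and Zic1 with the 6 lists did not pass.

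**Figure D4:**
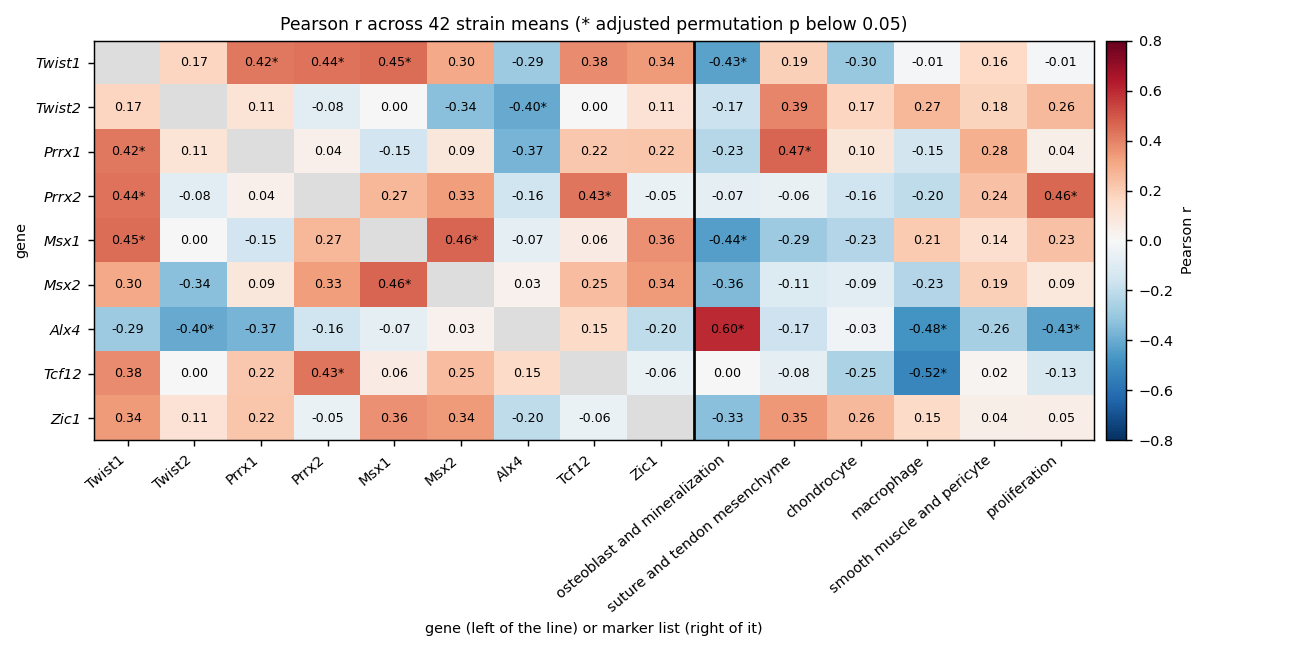
Pearson r across 42 strain means between the 9 genes (left of the line) and with 6 marker list scores (right of the line), as colour and number, with an asterisk where the adjusted permutation p was below 0.05. Alx4 stands out on the right with 0.60 for the osteoblast list and -0.48 for macrophage markers, while Prrx1 with Prrx2 is at 0.04.

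For each of the 9, the 3 genes with the most similar pattern over the 42 strain means were listed, among the 11904 genes that averaged 1 TPM or more. These are correlations across strains, given as a description. For Zic1 the first was Zic4 (r 0.86, rho 0.80), followed by Hs6st2 (0.72) and Cant1 (0.63). Zic4 ran from 1.62 to 8.53 scaled TPM over libraries. It was at 7.60 and 4.86 in CC039 and 7.49 in CC035, where Zic1 was high, and at 2.66 and 1.62 in CC023 and 3.37 and 2.34 in CC005, where Zic1 was low. The value was 0.76 in strains with close title numbers and 0.91 in those with distant numbers. In the annotation the 2 genes lie on opposite strands, and their whole spans, introns included, overlap by 3398 bases. The kit keeps strand, per the labels' protocols, but the sources used here do not say whether reads were assigned by strand. How far reads were shared between the 2 genes was not tested.

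Twist1 was most like Ahr (r 0.72, rho 0.75), the aryl hydrocarbon receptor gene, Bzw2 (0.71, rho 0.67) and Nfatc4 (0.69). Ahr and Bzw2 lie 3 and 5 places from Twist1 in the order of genes on its chromosome, counting only genes that averaged 1 TPM or more. Places, neighbours and adjacent genes below are counted in the same way. Of the 27 genes listed for the 9, 5 were on the chromosome of their gene, but not all of them were close to it. Ahr, Bzw2 and Zic4 were near, while Pex19 (listed for Prrx1) and Hspa14 (listed for Prrx2) lay well beyond 10 places. The share of all genes on these chromosomes is not given here, so the count has no background. Among the 10 neighbours on each side of Twist1, the highest r was that of Ahr and the lowest that of the adjacent gene Hdac9 (r -0.75, rho -0.70), a histone deacetylase gene. The latter was also the lowest value over the 11904 genes. Hdac9 was at 0.539 and 0.729 scaled TPM in CC043, where Twist1 was highest, at 1.01 and 0.896 in CC009 and at 0.886 to 1.46 in CC025. It was at 2.12 to 3.17 in the 4 CC004 libraries, at 2.59 and 1.83 in CC016 and at 2.44 and 3.03 in CC007, where Twist1 was low. The groups did not overlap, which the choice of strains by Twist1 and of Hdac9 by its r makes likely in advance. For Ahr the same groups did overlap, with CC004 at 1.53 to 7.20 scaled TPM and CC043 at 6.50 and 7.23. In strains with close and distant title numbers r was -0.79 and -0.81 for Hdac9, 0.76 and 0.74 for Ahr and 0.77 and 0.75 for Bzw2. The median r of the 20 neighbours was -0.13, against 0.01 over all genes. The pairs with neighbours were looked at after the values had been seen.

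Besides Zic1 with Zic4, the highest r between neighbours of the other genes was 0.63 for Prrx1 with the adjacent gene Gorab (0.72 and 0.55 in close and distant strains) and 0.54 for Tcf12 with the adjacent Cgnl1. No neighbour of Twist2, Prrx2, Msx1, Msx2 or Alx4 exceeded 0.5. Over all genes the share with r above 0.5 was between 0.277% (Msx2) and 6.64% (Alx4).

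**Figure D5:**
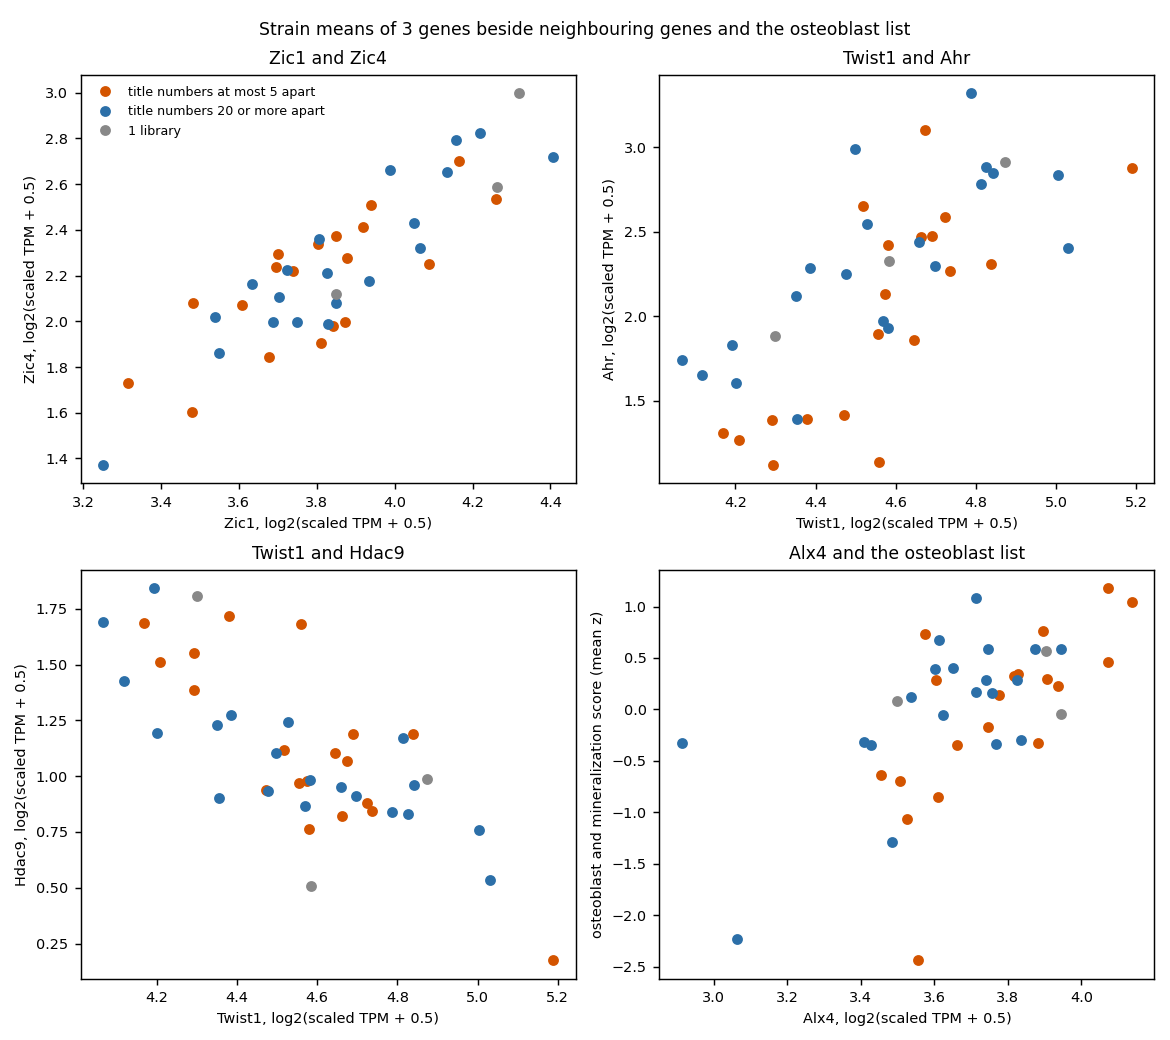
Strain means of Zic1 against Zic4, Twist1 against Ahr and Hdac9, and Alx4 against the osteoblast list score (log2 axes for genes, mean z-score for the list), coloured by how far apart the title numbers of a strain lie. Zic4 and Ahr rise (r 0.86 and 0.72) and Hdac9 falls (r -0.75) in both colours, and the osteoblast panel has CC030 and CC071 far below the rest.

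Twist2 was most like Dlk1 (r 0.78, rho 0.74), a Notch-related gene of immature mesenchyme, Hoxd8 (0.75, rho 0.79) and Emb (0.72). Dlk1 was at 3.94 and 8.06 scaled TPM in CC002, at 4.38 to 13.5 in CC008 and at 3.55 and 2.10 in CC007. It was at 0.153 to 0.299 in the 6 libraries of CC013, CC037 and CC005. Hoxd8 was at 3.83 and 4.40 in CC002 and 1.85 to 6.03 in CC008, against 0.186 to 0.707 in those 6. In CC007 it was at 1.53 and 1.71, near its median over libraries of 1.53. The strains were chosen by Twist2 and the genes by their r, which makes such a separation likely in advance. Hox genes set position along the trunk and limbs, and they were low as a group: 4 of 28 passed the filter, and all 4 passed the limma test of strains, beside 81.6% of all genes. Besides Hoxd8 (0.0365 to 6.67), these were Hoxd4 (0 to 1.53), Hoxd9 (0 to 0.553) and Hoxa2 (0 to 0.541). The 3 Hoxd genes all had their highest mean in CC038 and their lowest in CC019, the strains in which Alx4 was lowest and highest.

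Alx4 had the widest set of similar genes, with an absolute r above 0.5 for 14.0% of the 11904 genes, against 0.571% for Msx2, the lowest of the 9. It was most like Gpc1 (r 0.83, rho 0.77), a glypican gene, Nudt17 (0.82) and Sh3bp4 (0.79). Gpc1 was at 89.5 to 162 scaled TPM in CC038 and 59.5 and 94.9 in CC030, and at 280 to 335 in CC019, CC037 and CC061. Without the 2 strains farthest from the Alx4 median r was 0.74. Prrx2 was most like Lmna, the lamin A gene (0.73), Hspa14 (0.68) and Slc35e4 (0.68). Prrx1 was most like Adgrl1 (0.68), Pex19 (0.64) and Fam161a (0.64), and Tcf12 like Nckap1 (0.69), Mosmo (0.67) and Kdm1a (0.65). For Msx1 they were Chchd4, Anapc11 and Farsa (0.60, 0.60 and 0.59), and for Msx2 Epb41l4a, Kif3c and Lgals1 (0.67, 0.63 and 0.62).

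The other genes of the field were taken from lists. Of 19 suture signalling genes, all were measured and 17 passed the limma test of strains, beside 81.6% of all genes. The largest spreads were those of Fgfr3 (2.65 to 44.2 scaled TPM over libraries), Fgfr2 (39.8 to 216), Il11ra1 (29.7 to 191) and Smad6 (2.20 to 14.9), receptors and a signal inhibitor. Rab23 did not pass (limma adjusted p = 0.128). Of 37 other craniofacial transcription factors, 30 were measured and 25 passed. Large spreads were those of the homeobox genes Dlx3 (0.0828 to 6.38), Dlx6 (0.991 to 9.63) and Dlx5 (0.292 to 3.33), each lowest in CC030 or CC071. The median spread of strain means was 1.21 in both lists on the log2 scale, against 1.02 over all genes. Among the 9 genes it was 0.50 for Tcf12, 1.05 for Msx1, 1.12 to 1.36 for Twist1, Prrx1, Prrx2, Msx2, Alx4 and Zic1, and 1.76 for Twist2.

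Several of the 9 genes have more than 1 transcript, and 19 of the 34 transcripts measured passed the limma test of strains, beside 53.2% of all transcripts. Twist1, Twist2 and Msx2 have 1 transcript each in the table. Prrx1 was split over 3 protein-coding transcripts with medians of 31.5%, 26.8% and 15.2% of the gene and a processed transcript with 25.6%, and all 4 passed. For Prrx2, the protein-coding transcripts made up 48.9% and 27.2% and a retained-intron transcript 22.0%. The 2 main Zic1 transcripts made up 62.4% (limma adjusted p = 0.0510) and 36.8% (adjusted p = 0.00214) of the gene.

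Within Tcf12 the transcripts differed in how they varied. The most abundant, ENSMUST00000034755 with a median of 34.2% of the gene, did not pass (limma adjusted p = 0.383). The transcript ENSMUST00000183918, with a median of 10.1%, was at 4.24 to 6.26 scaled TPM in the 4 CC025 libraries and at 0.543 and 0.645 in the 2 of CC061. These were its highest and lowest strain by mean, and their libraries did not overlap. The strain means of this transcript covered 2.34 on the log2 scale (limma adjusted p = 2.26e-04), against 0.50 for the gene. The sources used here do not say how reads were divided among transcripts that share exons. In the strains with distant title numbers 5 of the 34 transcripts passed, beside 21.4% of all transcripts.

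The CC030 sample sequenced 2 times shows how far runs of the same RNA lay apart. Twist1 was at 17.8 and 22.1 scaled TPM in the runs, Msx1 at 7.27 and 9.40 and Zic1 at 13.0 and 15.6, log2 differences of 0.30, 0.35 and 0.26. Prrx1 was at 58.9 and 59.0, Twist2 at 1.14 and 1.18, Msx2 at 3.02 and 3.10, and Tcf12 at 27.1 and 25.4. The median absolute difference over all genes was 0.10. The spread between libraries of a strain, as a standard deviation on the log2 scale, was 0.25 for Twist1, 0.26 for Zic1 and 0.36 for Msx1. A difference between 2 runs is larger than their standard deviation, so the 2 measures are not alike. Only 1 sample was repeated. The other CC030 library held Prrx2 at 34.7, against 51.2 and 57.9 in the runs.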

How the data were processed

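The authors deposited 1 table of transcript values in TPM for 96 samples; each column sums to 1000000. The submitters' processing notes name Bowtie and mm9, with no version, and how reads were split between transcripts was not given in the sources used here. Of 94545 transcripts, 91225 had identifiers in the GENCODE annotation of GRCm38, which gave 37945 genes; as the builds differ, the annotation served for names, gene order and overlaps, and the coordinates shown are those of the RefSeq promoter table. TPM was divided by a trimmed mean of log ratios (30% trimmed by ratio, 5% by level; factors 0.773 to 1.27). Strain tests used limma 3.58.1 in R 4.3.3 on log2(scaled TPM + 0.5), with Benjamini-Hochberg adjustment over all 15760 genes, a trend of variance on level and 53 residual degrees of freedom; the script was tested on simulated data. Differences are therefore on the log2(TPM + 0.5) scale and understate changes of low genes. Relations used 1 mean per strain, Pearson's r, Spearman's rho and two-sided tests of 100000 permutations of strains (numpy 2.4.6), adjusted over 36 pairs or 54 relations. Scores average the z-scores of a list's tested genes. Depth was estimated from TPM steps that give whole reads (transcript length less 70 bases, tolerance 0.1 read, 71.6% to 77.0% of low values whole); no count test was run, since TPM keeps no depth. The genes and lists were chosen with earlier results of these data known. Named besides the 9 genes were, by rule, their 3 highest and 3 lowest strains, the 3 genes of most similar pattern, the 4 genes of largest range in each pathway list past the test and the 2 most abundant of each cell type list; the neighbour genes Hdac9, Gorab and Cgnl1 were chosen after their values were seen, and some list genes are not reported here. Alternatives covered scaling, pseudocount, filter, the repeated run, title numbers, the 3 strains of lowest osteoblast score and leaving out each library or strain.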

Additional observations from a re-analysis of the deposited data

How the results depend on the processing

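All 9 genes passed the limma strain test under every scaling, pseudocount and filter tried and without any single library; 8 passed without strain CC015, and 5 among strains with distant title numbers (their lowest- and highest-numbered library; relations used all libraries of those strains). The count of 56 strain calls ranged from 48 to 59 over those settings and from 52 to 62 without 1 library, where a strain left with a single library is assumed to vary like the others; 22 of the 56 were lost under at least 1 other scaling, pseudocount, filter or sample choice, and Tcf12 in CC030 turned sign on unscaled TPM (0.038). Of the 34 transcripts tested, 19 passed, against 5 among distant strains and 18 to 20 under the other settings. All 3 paralogue ratios passed without any single library, and 2 among distant strains. Pair calls (6) ranged from 0 to 7 when 1 strain was left out, and the 8 list relations from 6 to 9. Without scaling factors there were 16 pairs and 15 list relations; by construction an unscaled library factor enters both sides. Restricting to close or distant title numbers for relations, and leaving out whole strains in the strain test, were chosen after seeing the data: close strains (19) gave 2 pairs and 2 list relations, and distant strains (20) gave 0 pairs (3 at an unadjusted permutation p below 0.05) and 0 list relations (7). Fewer strains entered these, and why the counts were lower was not tested. Of single relations, the sign of r turned for Prrx1 with Prrx2, which did not pass, to -0.176 in close strains and to between -0.0167 and 0.166 when 1 strain was left out. Depth limits Twist2 most, at a median of 25.3 estimated reads per library. No paired analysis was possible because replicate numbers only name libraries within a strain and pair none across strains.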

Other observations

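Adipocyte markers, which the report does not describe, summed to a mean of 129 scaled TPM in CC038, the strain with the lowest Alx4 and highest Prrx1, and to 9.50 in CC013, with a median of 28.0 over libraries. Their most abundant gene, the lipase gene Lpl, ran from 2.87 to 132.1 scaled TPM, and 4 of the 6 markers passed the limma test of strains, beside 81.6% of all genes. The adipocyte hormone gene Adipoq was at 0 in 60 of 95 libraries.

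Across the 42 strains, the mean title number had an r of 0.37 with Msx1 (rho 0.33), 0.31 with Twist1 (rho 0.41) and 0.30 with Zic1 (rho 0.31). None of the 9 genes passed after adjustment over 9 relations (adjusted permutation p = 0.156 for each of these 3). Without CC035 and CC071 the values were 0.25, 0.31 and 0.16.

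The Alx4 gene overlaps Ext2, a gene of heparan sulphate synthesis, by 20312 bases on the opposite strand, and their r across strains was 0.34. Prrx1 overlaps the antisense gene Gm20471 by 6690 bases, with a median of 0.814 TPM and an r of 0.42. These overlaps are of whole gene spans, introns included, and how far the exons of such pairs overlap was not measured. The sources used here do not say whether reads were assigned by strand.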
